A study of Mus musculus with 15 samples.

Results

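Later-intron distal peaks are stretches of chromatin enriched for H3K27ac whose summit lies inside a protein-coding gene, past its first intron and away from known promoters. They were taken from the peak list of 1 CUT&RUN library, MCP H3K27ac replicate 5, made from cells of a mouse model of fusion-positive rhabdomyosarcoma (FP-RMS). A peak was kept when no base of it lay within 2 kb of a RefSeq transcription start site and its summit, the position of highest enrichment, fell in an intron of a curated coding transcript (a RefSeq NM_ model), in no first intron of such a transcript and in no RefSeq exon. The rule kept 35751 of 122375 peaks, or 29.2% of the list (Wilson 95% interval 29.0 to 29.5). It uses position alone, so the strength, width, host genes and sequence described here are not fixed by it, while the place of the summit is.

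The series comprised 15 libraries from tumors of 2 mouse models. The MCP label lists Myf6-Cre together with the alleles Cdkn2a(Flox/Flox) and Pax(3P3F/P3F) and the reporter R26-tdTom, and the TCP genotype carries Tek-Cre in its place with the same other alleles. In these mice Cre removes Cdkn2a, a tumor suppressor locus, switches on the PAX3-FOXO1 (P3F) fusion from the Pax3 promoter, and turns on the red fluorescent protein tdTomato. Myf6-Cre acts in myogenic cells and Tek-Cre in endothelial and hematopoietic cells, and both models carry the engineered Pax3 allele, so no library of the series lacks it. H3K27ac was profiled in 6 MCP and 3 TCP libraries, and IgG, which measures background, in 3 of each. Tumors were dissociated and live tumor cells sorted, for which the labels name a live/dead dye and no other marker, and neither age nor sex of the animals is given by the labels. The other 14 libraries were not analysed here, so nothing is compared between tumor types, there is no replicate, and no p-value is given. Every interval is a 95% interval that covers counting error only and treats the counted peaks or genes as independent. Peaks are crowded into runs, as described below, so the intervals of densities are too narrow, most of all for short gene lists. The library also had no molecular identifiers, and its fragments cannot be taken as separate molecules.

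Acetylation of histone H3 at lysine 27 is laid down by the coactivators EP300 and CREBBP at active promoters and active enhancers. Enhancers are short regions that bind transcription factors and raise the activity of a promoter, often over long distances, and introns of genes active in a cell are a usual place for them. An enhancer in an intron may act on its host gene or on another gene, and a peak list alone does not tell which. In FP-RMS, P3F binds mainly at such distal sites and works with myogenic factors such as MYOD1 and MYOG, which recognise the E-box, while AP-1 factors (the FOS and JUN families) bind enhancers in many proliferating cell types.

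The windows printed here were chosen to show the motif matches that are counted further on and the leading peaks of genes rich in later-intron distal peaks. Each holds the summit base and 100 bases on either side, on the plus strand of GRCm38 (mm10), and was read from the RefSeq genome. Capitals mark every match on either strand to 5 motifs, namely AP-1 (TGANTCA, where N is any base), the E-box of MYOD1 and MYOG (CAGCTG), KLF (GGGTGTG), RUNX (TGTGGTT) and the PAX paired domain (GTCACGC).
Eea1 intron 13 (chr10:96015707-96015907): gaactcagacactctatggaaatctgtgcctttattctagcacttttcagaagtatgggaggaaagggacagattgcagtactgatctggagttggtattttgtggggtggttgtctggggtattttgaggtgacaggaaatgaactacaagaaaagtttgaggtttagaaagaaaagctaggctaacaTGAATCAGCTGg
Galntl6 intron 6 (chr8:57955914-57956114): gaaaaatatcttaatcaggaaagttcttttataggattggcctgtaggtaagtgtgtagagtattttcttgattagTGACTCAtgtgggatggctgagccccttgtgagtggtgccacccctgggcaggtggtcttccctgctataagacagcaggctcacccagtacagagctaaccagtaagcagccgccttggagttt
Msi2 intron 7, AP-1 (chr11:88430568-88430768): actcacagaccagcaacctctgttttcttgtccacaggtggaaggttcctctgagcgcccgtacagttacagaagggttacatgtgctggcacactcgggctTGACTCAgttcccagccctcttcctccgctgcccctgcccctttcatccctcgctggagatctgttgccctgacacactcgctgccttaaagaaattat
Sf3b3 intron 17 (chr8:110817712-110817912): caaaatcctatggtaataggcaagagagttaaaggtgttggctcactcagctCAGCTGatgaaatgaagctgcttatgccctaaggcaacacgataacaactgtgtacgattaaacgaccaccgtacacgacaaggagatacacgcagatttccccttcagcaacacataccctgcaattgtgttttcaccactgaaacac
Slc10a7 intron 4 (chr8:78584536-78584736): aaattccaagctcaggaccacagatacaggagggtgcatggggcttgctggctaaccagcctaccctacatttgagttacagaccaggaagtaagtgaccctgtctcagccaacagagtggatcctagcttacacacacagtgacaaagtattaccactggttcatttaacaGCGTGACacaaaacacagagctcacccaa
Sox5 intron 2 (chr6:143897886-143898086): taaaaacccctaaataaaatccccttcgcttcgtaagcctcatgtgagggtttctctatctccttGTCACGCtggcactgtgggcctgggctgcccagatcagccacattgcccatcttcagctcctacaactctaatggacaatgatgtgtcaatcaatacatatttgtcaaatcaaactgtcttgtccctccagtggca
Msi2 intron 7, strongest (chr11:88479061-88479261): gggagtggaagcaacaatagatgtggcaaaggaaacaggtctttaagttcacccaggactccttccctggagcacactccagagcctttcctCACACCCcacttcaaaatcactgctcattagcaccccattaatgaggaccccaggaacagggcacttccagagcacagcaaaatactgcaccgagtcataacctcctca
Hmga2 intron 3 (chr10:120406905-120407105): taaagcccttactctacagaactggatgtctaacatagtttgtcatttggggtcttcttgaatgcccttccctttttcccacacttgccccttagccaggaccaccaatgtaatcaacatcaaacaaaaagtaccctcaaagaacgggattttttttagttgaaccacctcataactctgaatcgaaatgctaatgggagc
Igf1r intron 2 (chr7:68022089-68022289): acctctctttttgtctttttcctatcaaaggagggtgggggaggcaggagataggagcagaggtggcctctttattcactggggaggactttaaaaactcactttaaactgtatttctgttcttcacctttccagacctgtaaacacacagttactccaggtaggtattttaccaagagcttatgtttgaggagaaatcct
Ccdc93 intron 12 (chr1:121476607-121476807): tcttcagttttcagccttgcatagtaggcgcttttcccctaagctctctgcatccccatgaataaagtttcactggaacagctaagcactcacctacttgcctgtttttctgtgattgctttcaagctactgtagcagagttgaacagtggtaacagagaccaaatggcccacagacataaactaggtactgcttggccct
The first 3 windows belong to the 3 highest-fold members with an AP-1 match. In the Eea1 window the AP-1 match and the E-box share bases and are printed as 1 run of capitals. The Sf3b3 window belongs to the highest-fold member with the E-box, and the Slc10a7 and Sox5 windows to the 2 highest-fold members with the PAX paired-domain letters. No match to the 5 motifs lies in the Hmga2, Igf1r or Ccdc93 windows, which says only that these letters are not in those bases.

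Most later-intron distal peaks were small and of modest strength. The fold enrichment matches the H3K27ac fragments at the summit times 0.885, a scale for the depth of the 2 libraries, plus 1, divided by the local IgG background in fragments plus 1. The added 1 keeps folds lower than the plain ratio, most of all over a low background. Its median was 4.99 (95% interval 4.94 to 5.04), with quartiles of 4.36 and 6.08 and a range from 1.77 to 29.0. The median width was 155 bp (153 to 156), with quartiles of 98 and 300 bp, and the widest peak spanned 7024 bp. The fragments recovered over the summit numbered 12 at the median, with quartiles of 10 and 15, and 88.1% of members had fewer than 20. A single peak at this depth is therefore known only roughly, and the statements on groups of peaks are the firmer ones. All members together covered 10.2 Mb, which is 1.62% of the later-intron sequence that the rule could have drawn from.

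The strong end of the distribution held wide peaks in the introns of genes with unlike roles. A fold of at least 10 was reached by 3.26% of members (3.08 to 3.45), beside 3.5% of all distal peaks in the list (3347 of 95604) and 4.32% of all peaks. A width of at least 1500 bp was reached by 1.86% of members and 1.82% of all distal peaks. The highest value, 29.0 in intron 12 of Ccdc93, came from a peak of only 165 bp with 163 fragments, over a background of 4.00 fragments. The next were peaks of 2965 bp in intron 2 of Mapkap1 (fold 25.5, 58 fragments), a subunit of mTOR complex 2, and of 2736 bp in intron 9 of Zzef1 (fold 24.6, 56 fragments). Intron 4 of Rad18, a ubiquitin ligase of DNA damage tolerance, held 1 of 4335 bp (fold 24.3, 60 fragments). The other hosts among the 10 highest were Tenm3, Tmem163, Zfhx4, Kcnt2, Nek7 and Eya2, with folds of 19.9 to 22.0. The Ccdc93 peak was much narrower than the remaining 9, which were 1299 to 4625 bp wide, and its background of 4.00 was the highest of the 10, where the next was 2.18 under the Kcnt2 peak. The widest member lay in intron 2 of St3gal1, a sialyltransferase, and had a fold of 13.0. Tmpo, Nek7, Msi2, Phlpp1, Borcs5, Zkscan6, Acsl3, Tmem163 and Fhl2 held the other 9 of the 10 widest, at 4619 to 6783 bp.

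Later introns were denser in peaks than sequence between genes and sparser than first introns. Outside promoter windows there were 632 Mb of later-intron sequence, which gave 56.5 members per Mb (56.0 to 57.1). First introns held 21013 distal peaks in 231 Mb, or 90.9 per Mb, which is 1.61 times the later-intron density (1.58 to 1.64). Intergenic sequence held 33507 distal peaks in 1567 Mb, or 21.4 per Mb, so that later introns were 2.64 times denser (2.60 to 2.68). Distal peaks with summits in exons reached 53.6 per Mb (51.7 to 55.5), close to the later-intron value, with a ratio of 1.06 (1.02 to 1.10).

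In strength the classes differed far less than in density. The median fold of later-intron distal peaks was below that of first-intron distal peaks (4.99 against 5.22, difference -0.23, with bounds of -0.28 and -0.13 from the 2 medians' intervals). Against intergenic distal peaks (5.17) the difference was -0.17 (-0.28 to -0.09). Median widths were 155 bp in later introns, 165 bp in first introns and 161 bp between genes. The share with a fold of at least 10 was 3.59% in first introns (3.35 to 3.85) and 3.85% between genes (3.65 to 4.06). The later-intron share of 3.26% (3.08 to 3.45) lay below both, and its interval overlaps the first-intron interval but not the intergenic one. These differences in median fold are small beside the quartiles within each class. Both were 0.0 once a -log10 q of 5 or more was required, a limit that itself selects on strength. Fold moves in steps set by whole fragments, so medians can tie without the classes being equal.

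**Figure D1:**
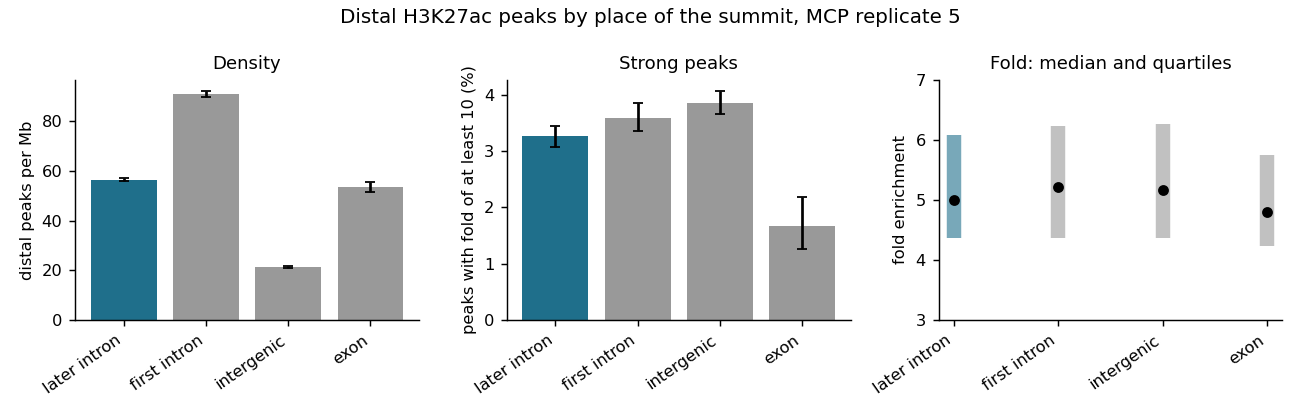
Distal H3K27ac peaks by the place of their summit: peaks per Mb of eligible sequence (left, bars from 0 with exact Poisson 95% intervals), share with a fold enrichment of at least 10 (middle, percent, Wilson 95% intervals) and fold enrichment (right, dots are medians and shaded bars run from the lower to the upper quartile). Later introns (56.5 per Mb) lie between first introns (90.9) and intergenic sequence (21.4) in density, while the quartiles of fold overlap in all 4 classes.

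Members were crowded into runs rather than spread evenly. Another later-intron distal peak lay within 1 kb of 74.2% of members and within 12.5 kb of 92.4%, and the median distance to the nearest one was 0.491 kb. Joining summits no more than 12.5 kb apart gave 8178 runs, of which 2717 were single peaks holding 7.60% of members. Runs of at least 10 peaks numbered 806 and held 42.9% of members over a median span of 25.1 kb. The longest was in Msi2, with 199 peaks over 278 kb, followed by Hmga2 (137 peaks over 108 kb), Meis1 (106 over 134 kb), Tmem163 (90 over 167 kb) and Phlpp1 (86 over 109 kb). In the Hmga2 run peaks covered 43.2% of the span, and in the Msi2 run 30.3%. First-intron and intergenic distal peaks were crowded in much the same way, with a neighbor of their own class within 1 kb in 78.6% and 75.7%.

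Density was not the same at all positions in a gene. It was 57.5 per Mb up to 10 kb from the nearest start site of a coding transcript that spans the summit, rose to 73.2 at 25 to 50 kb (71.5 to 74.8) and 71.9 at 50 to 100 kb, and was 28.0 beyond 200 kb (27.1 to 28.8). The last group took up 24.9% of later-intron sequence but only 12.3% of members. The median member lay 53.9 kb from such a start site, with quartiles of 23.7 and 116 kb, so these are mostly long-range positions. Median fold moved little with distance, from 4.79 within 10 kb to 5.05 beyond 100 kb.

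By intron number the density was highest in the second intron. Intron 2 held 9409 members, 26.3% of all, in 22.1% of the sequence (67.3 per Mb), intron 3 held 5535 (61.2 per Mb), intron 4 held 3468 (55.6) and intron 5 held 2423 (50.2). Introns 6 to 10 reached 55.0 per Mb, above intron 5, so the decline was not even, and introns past the 20th had 47.7. With intron numbers taken from the longest transcript of each gene, 23.1% of members lay in intron 2. Introns of 5 to 20 kb had 67.6 members per Mb (66.3 to 68.8), while introns over 100 kb had 26.3 (25.3 to 27.3). Genes with over 200 kb of later introns had 84.8 per Mb where an H3K27ac peak lay at their own promoter and 15 per Mb where none did. The latter genes held 169 of the 233 Mb of that band. Their part in the lower density of long introns and far positions was not tested. Within introns, density was lowest in the 200 bp beside an exon (48.0 per Mb) and beyond 20 kb from any exon (35.5), and highest at 2 to 5 kb (68.2). A peak that reaches an exon is still a member when its summit is intronic, and 4.52% of members touched an exon.

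**Figure D2:**
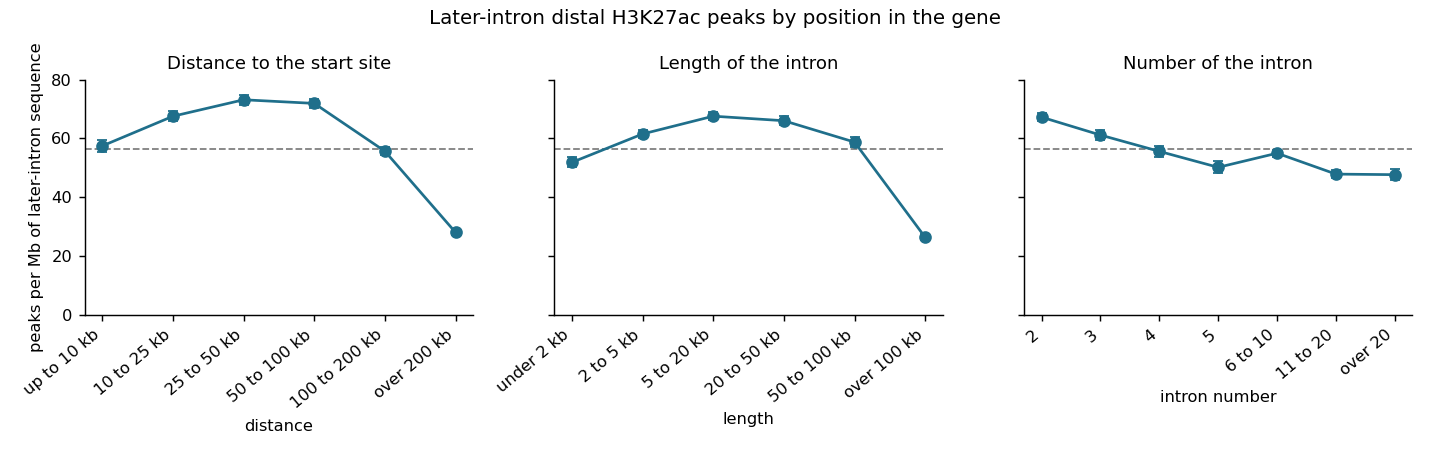
Later-intron distal peaks per Mb of later-intron sequence (vertical axis) by distance to the nearest start site of a spanning coding transcript, by length of the shortest intron around the summit and by lowest intron number (horizontal axes, in bins). Points carry exact Poisson 95% intervals and the dashed line is the density over all later introns, 56.5 per Mb, and density falls to 28.0 beyond 200 kb and to 26.3 in introns over 100 kb. Genes with and without an H3K27ac peak at their promoter are pooled.

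The chromosomes were unequal, and this bears on the genes named next. Chromosomes 1, 6, 11 and 15, set apart because earlier results showed them to be the densest, held 32.1% of members at 77.7 per Mb (76.3 to 79.1), and the other chromosomes had 50.1 per Mb (49.5 to 50.7). The IgG background under a member was above its commonest value of 1.05 fragments in 73.1% of members on those 4 chromosomes and in 38.8% elsewhere. Among the other autosomes the values went both ways. Density was 48.5 per Mb on chromosome 19, where 44.4% of members had a raised background, and 59.8 per Mb on chromosome 18, where 36.1% did. Chromosome 3 had 55.4 per Mb with a raised background in 42.7%, and chromosome 14 had 48.1 per Mb with 35.6%. The part of the background in the density of the 4 chromosomes was not tested. Chromosome X had 12.3 per Mb (11 to 13.7) with a raised background in 30.0% of its 333 members. Without the 4 chromosomes the density in first introns was still 1.64 times that in later introns, and later introns were 2.63 times as dense as intergenic sequence.

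Of 16489 protein-coding genes with later-intron sequence, 5056 (30.7%) held at least 1 member and 1941 (11.8%) held at least 5. Peaks were concentrated, with 549 genes, 10.9% of those with a member, holding at least as many member positions as all the rest, and 1262 genes holding a single one. Genes with an H3K27ac peak at their own promoter were the richer hosts. Among 8542 such genes 44.8% held a member (43.7 to 45.8), at 103 per Mb of their later-intron sequence, against 15.5% (14.7 to 16.3) and 19.5 per Mb among 7947 genes without one. The gap was present in every band of later-intron length, from 96.4 against 11.6 per Mb under 5 kb to 84.8 against 15 per Mb over 200 kb. Hosts with a promoter peak held 81.1% of members, and this share was nearly the same from the 25% of members with the lowest fold (81.2%) to the 25% with the highest (80.9%). The promoter peaks come from the same library and share its depth.

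The 10 genes with most members were Msi2 (220), Hmga2 (137), Pde4d (136), Rbms3 (121), Antxr1 (115), Dst (109), Meis1 (106), Tcf4 (105), Fndc3b (104) and Rad51b (104). Msi2 encodes an RNA-binding protein of the Musashi family known for keeping progenitor cells undifferentiated. In Msi2 (chr11:88339382-88718277, minus strand) the peaks lay mostly in introns 6 (95 peaks in 110 kb), 7 (61 in 66 kb) and 5 (50 in 122 kb) of the longest coding transcript, and the strongest, in intron 7, had a fold of 16.7 with 39 fragments. Hmga2, an architectural chromatin protein of embryonic tissue, is far shorter (chr10:120361268-120476469, minus strand) and had 1377 members per Mb. Its intron 3 held 103 of the 137 peaks in 88.0 kb, while introns 2 and 4 held 20 and 14, and the highest fold was 12.1 with 27 fragments. The background was raised in 49.6% of Hmga2 members, near the 49.8% of all members, and in 66.4% of those in Msi2. Meis1, a homeodomain partner of HOX proteins, had 796 per Mb, with 37 peaks in intron 7 and 33 in intron 8, and a raised background in 87.7%. Antxr1 and Dst, on chromosomes 6 and 1, had raised background in 79.1% and 83.5% of their members.

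Other genes at the top of the list showed different layouts. Pde4d, a phosphodiesterase that breaks down cAMP, held its peaks in 1081 kb of later-intron sequence at 126 per Mb, with 102 of them in an intron 3 of 708 kb. Its strongest peak, 991 kb from the nearest start site, had a fold of 19 with 43 fragments. Pde4d was also the only one of these 10 genes without a promoter peak at any curated start site. Rad51b, a gene of recombination repair, held 103 of its 104 peaks in the 330 kb of intron 7. Tcf4, an E protein that pairs with myogenic and neural bHLH factors, held 42 in intron 8 and 18 in intron 15. Rbms3, with an RNA-binding product, was the least dense of the 10 but for Pde4d, at 193 per Mb. The cytoskeletal linker Dst spread its peaks over a transcript of 102 introns, with at most 16 in any intron.

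Ranked by density among genes with at least 10 members, the leaders were short genes. Pthlh, which encodes a secreted parathyroid hormone-related protein, had 17 peaks in 9.02 kb of later-intron sequence, or 1885 per Mb, and all 17 lay over a raised background. Pwwp2b followed with 18 peaks (1799 per Mb), then Ywhaz, a 14-3-3 adaptor protein, with 25 (1427), Hmga2 (1377), Prg4 (1322), Klf5 (1292) and Lrig1 (1276). Lrig1, a brake on receptor tyrosine kinases, reached this rank with 68 peaks, 36 of them in intron 3, and a raised background in 88.2%. Fem1c, Rac1 and Cyb5r3 completed the 10 with 1251, 1243 and 1207 per Mb. All 10 carried a promoter peak.

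**Figure D3:**
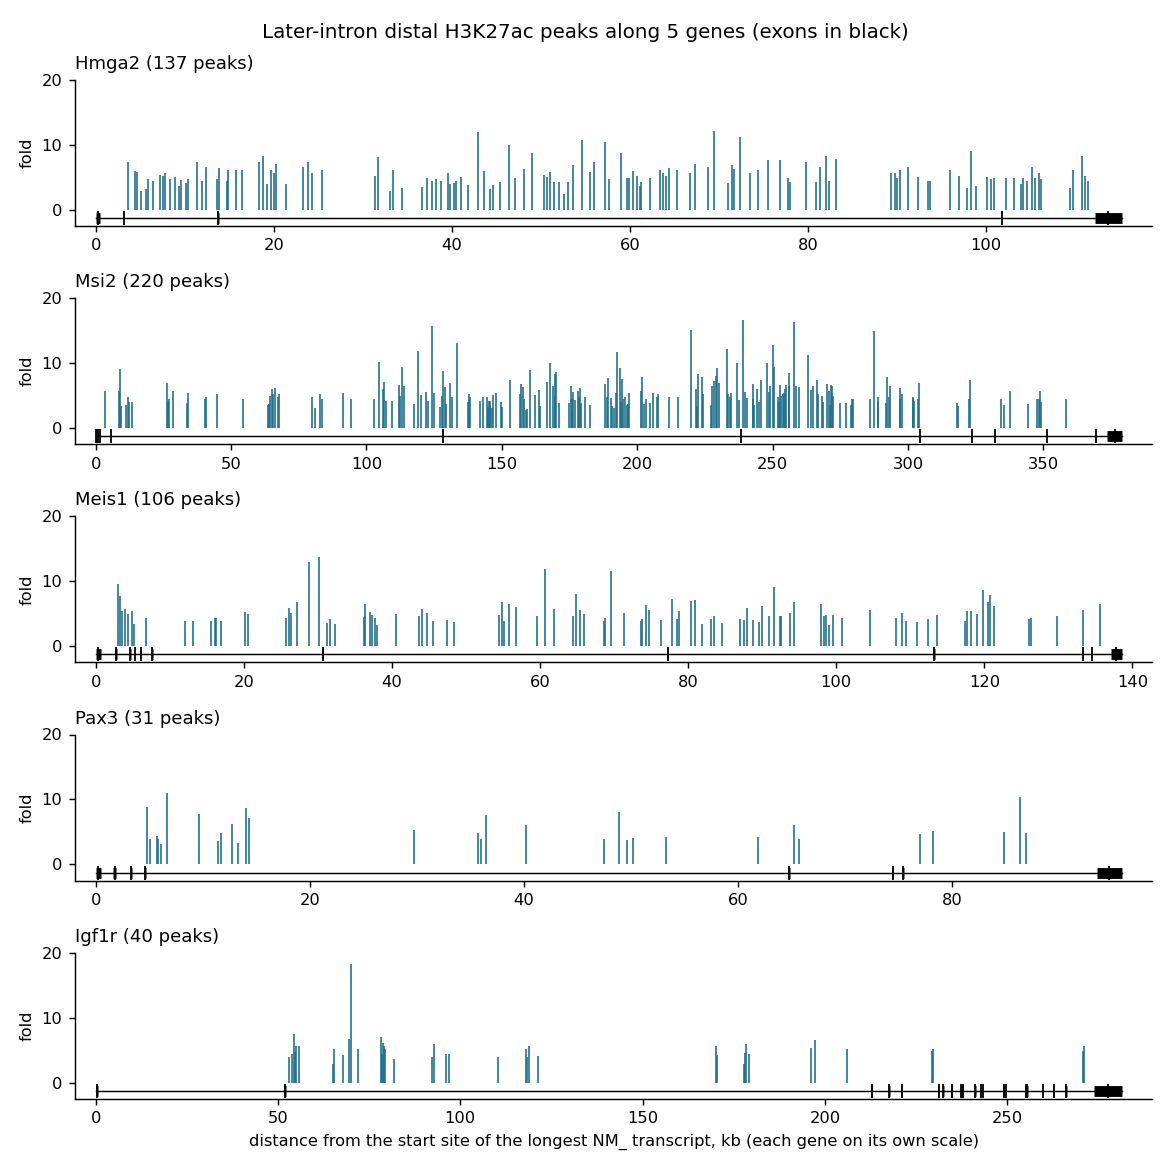
Each vertical line is a later-intron distal peak, placed by its distance in kb from the start site of the longest coding transcript (horizontal axis, each gene on its own scale) and as tall as its fold enrichment (vertical axis), with exons in black under the lines. Peaks fill Hmga2 nearly end to end, sit mainly in the middle introns of Msi2, and gather in the first part of intron 2 in Igf1r, whose tallest peak has a fold of 18.3.

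A member-rich gene did not need a peak at its own promoter. Among the 416 genes with at least 20 members, 76 had no promoter peak, and 81.7% had one, beside 51.8% of all genes with later-intron sequence. After Pde4d the richest without one were Dlg2 (93 peaks, highest fold 16.4), a synaptic scaffold, the calcium channel gene Ryr3 (77), Thsd7b (76), Wwox (70), Agap1 (63) and Tenm3 (61, highest fold 22.0). A run of 77 peaks over 108 kb (chr2:112626315-112734306) takes in members of both Ryr3 (chr2:112631380-113217083, minus strand) and Aven. The background was raised in 81.6% of Thsd7b and 81.0% of Agap1 members, both on chromosome 1. In Dlg2, Ryr3, Wwox and Tenm3 it was raised in 18.2% to 45.7%. Start sites outside the curated models are not counted here, and 16.5% of all members lay within 2 kb of a start site in the wider GENCODE annotation. Those 5903 members had a median fold of 5.05, against 4.98 for the remaining 29848.

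Among the gene lists, the muscle lists went apart. Of 12 myogenic regulators with later-intron sequence 7 held a member and 3 held at least 5, beside 30.7% and 11.8% of all genes. Their density was 117 per Mb (93.5 to 145), beside 56.7 over all genes. A promoter peak lay at 6 of the 12, and the density over all genes with such a peak, 103 per Mb, lies within that interval. Tcf12, an E protein partner of MYOD1, held 39, Pax3, the 5′ partner of the fusion, held 31 and Mef2a held 10, which together are most of the list's 85 peaks. Of the 31 in Pax3 (chr1:78101267-78197136), 24 lay in intron 4, 5 in intron 7 and 2 in intron 5, and the strongest had a fold of 11 with 28 fragments. The label gives the engineered allele on both copies of Pax3, and the sequence of exons 1 to 7 serves the fusion and, before Cre acts, Pax3 itself, so that fragments of recombined and other copies cannot be told apart. The background was raised under 83.9% of the Pax3 members. Mef2c, Mef2d and Six4 held 1 each and Ncam1 held 2. Pax7, Des, Cdh15, Fgfr4 and Chrna1 held none, and Myod1, Myog, Myf5, Myf6 and Msc have no later-intron sequence that the rule could use.

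The sarcomere genes, which build the contractile apparatus, held few peaks each. Of 18 genes 7 (38.9%) held a member, beside 30.7% of all genes, but none held 5, and the 19 members came to 5.63 per Mb (3.39 to 8.79). Dmd, with 1 member in 2043 kb, made up most of the sequence, and without it the list had 13.5 per Mb (8.0 to 21.3), beside 19.5 per Mb for all genes that lack a promoter peak. Ryr1, Myom1 and Myom2 held 4 each, while Ttn, Neb and Trdn, with 172, 173 and 327 kb, held none. Only 1 of the 18, Tnnt3, had a promoter peak.

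Genes known as P3F targets were divided. The list had 106 members per Mb (87.7 to 128), with 7 of 12 genes holding a member, and 193 per Mb without Alk, its gene with most later-intron sequence. Over all genes the density was 56.7 per Mb and 30.7% held a member. A promoter peak lay at 6 of the 12, and the density over all genes with such a peak was 103 per Mb. Igf1r, a growth factor receptor, held 40, of which 36 lay in intron 2, including the list's strongest peak (fold 18.3, 47 fragments, 69.9 kb from the start site). Met, the receptor of hepatocyte growth factor, held 33 with a highest fold of 12.6 and a raised background in 87.9%. Jarid2 held 17, Cdh3 12 and Alk 6, the last in 507 kb of later introns, and Fgf8 held 4 in 3.5 kb with a highest fold of 13.4. Fgfr4, Mycn, Tfap2b, Nos1 and Prdm12 held none. Over all 22 receptor tyrosine kinases the density was 55.2 per Mb (46.8 to 64.6), near the value of all genes, and 9 of the 22 (40.9%) held a member. Beside Igf1r, Met and Alk, those with at least 5 were Ddr2 (26), Fgfr1 (20), Egfr (11), Axl (10) and Insr (5), whereas Erbb4, Ntrk2 and Ntrk3 held none in 697, 302 and 321 kb.

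Signalling lists with no muscle label were among the densest of the lists used. The lists were chosen with earlier results of these data known, so their rank is a description only. The Hippo list, whose kinases restrain YAP1 and TAZ, had 183 per Mb (158 to 211), and 15 of its 17 genes had a promoter peak. All genes with a promoter peak had 103 per Mb. Of the 17 genes 13 (76.5%) held a member and 11 held at least 5, beside 30.7% and 11.8% of all genes. Leaders of the Hippo list were Vgll4 (46 peaks), a TEAD cofactor, Tead4 (27), Tead1 (24), Wwtr1 (19), Stk3 (19) and Yap1 (17), and Amotl1, Vgll3, Ptpn14, Lats2 and Sav1 held 5 to 7. Among 23 genes of TGF-beta and BMP signalling 15 (65.2%) held a member (167 per Mb, 144 to 193), and 16 of the 23 had a promoter peak. Ltbp1, which stores latent TGF-beta in matrix, held 61, the receptor Acvr1 30, the inhibitor Smad7 27 at 1184 per Mb, Tgfbr3 26, Smurf2 9 and Bmpr2 6. The Notch list had 103 per Mb (78.5 to 132), led by Maml3 and Fbxw7 (15 each), Notch2 (11) and Jag1 (7).

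The PI3K and mTOR list depended on where its genes lie. It had 162 per Mb (143 to 182) with 12 of 15 genes holding a member, beside 30.7% of all genes. A promoter peak lay at 13 of the 15, and the density over all genes with such a peak was 103 per Mb. The list was led by Rptor (87), an mTOR complex 1 subunit, Phlpp1 (86), a phosphatase acting on AKT, and Foxo3 (33). Rptor and Phlpp1 lie on chromosomes 11 and 1, and without chromosomes 1, 6, 11 and 15 the list had 70.4 per Mb (55.6 to 87.9) beside 50.3 for all genes. Leaving out only Inpp4b, its gene with most later-intron sequence, gave 250.3 per Mb. Without chromosomes 1, 6, 11 and 15 the Hippo list kept 162 per Mb (130 to 199) and the TGF-beta and BMP list 174 (149 to 202). The myogenic list then had 85.5 (64.2 to 112) and the P3F target list 82.6 (65.4 to 103), also beside 50.3 for all genes. Inpp4b (17), Mtor (11), Pik3ca and Rictor (7 each) and Pik3cb (6) also held at least 5.

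Regulators of development and chromatin held a member in most genes, beside 30.7% of all genes. Promoter peaks lay at 19 of the 30 developmental factors and 21 of the 24 chromatin regulators. All genes with a promoter peak had 103 per Mb. Of those with 50 to 100 kb of later introns 82.8% held a member, and of those with 100 to 200 kb 87.6% did. The median later-intron sequence was 73.2 kb for the chromatin regulators and 164 kb for the developmental factors. Of 30 developmental transcription factors 25 held a member and 21 held at least 5, at 133 per Mb (123 to 143). Beside Meis1 and Tcf4 these included Foxp1 (76), Runx1 (75), Gli3 (57), Sox5 (41), Tcf7l2 (32), Runx2 (29), Meis2 (28) and Pbx3 (21). In Runx1, 31 peaks lay in intron 5, 22 in intron 2 and 13 in intron 4. Klf12, Nfia, Tcf7l1, Nfib, Zeb1, Nfic, Gli2, Zfhx3, Prrx1 and Nfix held 5 to 17. Chromatin regulators had 77.5 per Mb (67.7 to 88.3), below the 103 of genes with a promoter peak, and 22 of 24 held a member. Among them were the histone deacetylase gene Hdac9 (23), Chd7 (20), Arid1b (16), Ezh2 and Tet3 (14 each), Ncor1 (11), Hdac4 and Smarca4 (9 each), Setd2 (7) and Chd4 (5).

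Lists that mark other cell types differed from each other. Immune markers had 1 member in 14 genes (1.34 per Mb, 0.0338 to 7.45). A member was held by 3 of 14 hepatocyte markers (17.5 per Mb, and 9.54 without Abcb11), by 4 of 14 fibroblast markers (28.6%, 30.6 per Mb) and by 5 of 14 neuronal markers (35.7%, 26.1 per Mb), so the last 2 shares lay near the 30.7% of all genes while their densities were lower. Among fibroblast genes Col3a1 held 7 and Fn1 6, and among neuronal genes Gad2 held 14, Syt1 12 and Map2 10. Without chromosomes 1, 6, 11 and 15 the fibroblast value was 10.6 per Mb, the neuronal value 44.6 (29.1 to 65.3) and the immune value 3.94, beside 50.3 for all genes. Of 17 endothelial markers 7 (41.2%) held a member, with 69.5 per Mb (54.7 to 87.1), and 67 of the 75 peaks lay in Mecom (33), Eng (15), Cd34 (9) and Vwf (10). Without Mecom the endothelial value was 52.3 per Mb (37.7 to 70.7), beside 56.7 for all genes. Without chromosomes 1, 6, 11 and 15 it was 58.5 (43.7 to 76.7), beside 50.3. Pecam1 held 4, Tek 3 and Cdh5 1, and Kdr, Flt1, Tie1, Erg, Fli1, Emcn, Esam, Egfl7, Sox17 and Ptprb held none. The cells were sorted as live tumor cells, per the study's methods, and whether cells of other types passed that sort was not tested. Of 20 very long adhesion and synaptic genes 15 held a member, at 19.3 per Mb (17.5 to 21.2), beside 15 per Mb (14.4 to 15.6) over genes of more than 200 kb of later introns without a promoter peak, which 18 of the 20 lack. The list was led by Dlg2 (93), Wwox (70), Cdh13 (46), Magi2 (41) and Macrod2 (40), with Opcml, Csmd1, Nrxn3, Cntnap2, Csmd3 and Lsamp at 6 to 25. Housekeeping genes have short introns, and 1 of 10 held 2 members.

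Lists used by the study were read in the same way. They come from other work on rhabdomyosarcoma, apart from the endothelial list. Over all genes 30.7% held a member, at 56.7 per Mb. That share lies within the intervals of the DepMap, NIH and endothelial shares below. The St. Jude list of core regulatory transcription factors had 128 members per Mb (115 to 141), with 18 of 35 genes holding a member, led by Creb5 (78), Runx1, Gli3 and Nfatc1 (37). The DepMap list of genes that rhabdomyosarcoma cells depend on had 123 per Mb (112 to 135) with 35 of 91 (38.5%, 29.1 to 48.7). It was led by Cux1 (88), where 60 peaks lay in intron 2, then Igf1r, Tcf12, Pax3, Runx2, Spen (23) and Chd2 (22). The NIH list of core regulatory factors had 60.7 per Mb (44.1 to 81.5) with 10 of 21 (47.6%, 28.3 to 67.6), and only Ets1 (12), Pknox2 (9) and Hivep2 (8) held at least 5. The list of endothelial transcription factors had 75.9 per Mb (61.7 to 92.4) with 14 of 33 (42.4%, 27.2 to 59.2), and Mecom, Terf1 (14), Mier1 and Pparg (9 each) were among those with at least 5. Without Mecom this list had 64.2 per Mb (49.6 to 81.7).

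**Figure D4:**
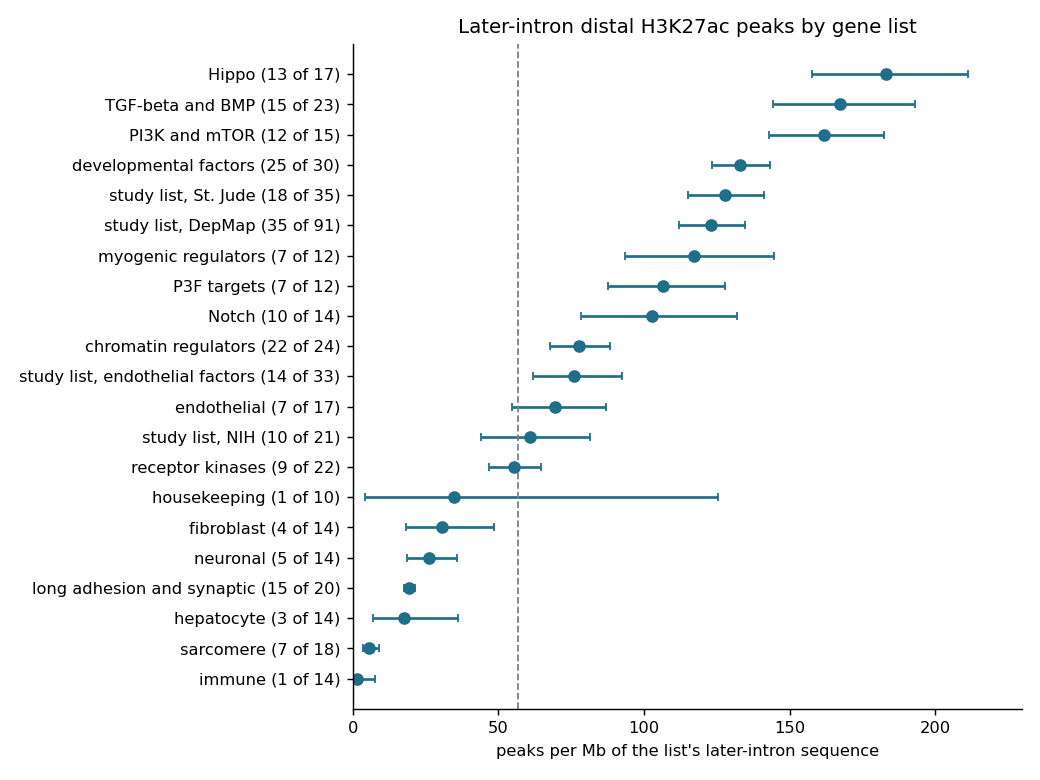
Later-intron distal peaks per Mb of each list's later-intron sequence (horizontal axis, exact Poisson 95% intervals) for 21 gene lists, with the number of genes holding a member of those with later-intron sequence in brackets and all genes (56.7 per Mb) as the dashed line. Hippo (183) and TGF-beta and BMP genes (167) lie at the top, and sarcomere (5.63) and immune genes (1.34) at the bottom. The lists were chosen with earlier results of these data known.

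Summits of later-intron distal peaks differed in sequence from the introns around them. The 35751 summit windows, each with 100 bases on either side of the summit, had 44.5% G and C, against 42.1% in 2998364 tiles of the same length that cover later-intron sequence outside peaks. Soft-masked repeats made up 18.2% of the windows and 29.4% of the tiles, and 80.6% of windows held a CpG against 71.8% of tiles. Because base composition alone changes how often short motifs occur, each motif was also set against tiles weighted to the GC content of the windows and against windows centred 1 kb either side of the summits.

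AP-1 matches were more frequent at summits in all 3 comparisons. The letters TGANTCA, as printed in capitals for Eea1, Galntl6 and Msi2, occurred in 8.78% of windows (8.49 to 9.08) and in 5.89% of tiles, a ratio of 1.49 (1.44 to 1.54). The ratio was 1.51 against GC-weighted tiles and 1.52 against the windows 1 kb away. The match was no more frequent in strong members, with 9.49% in the 25% of lowest fold and 7.78% in the 25% of highest fold, and it occurred in 8.12% of first-intron and 9.54% of intergenic distal peaks. The E-box CAGCTG occurred in 10.1% of windows against 7.60% of tiles, a ratio of 1.33 (1.29 to 1.37), which shrank to 1.13 against GC-weighted tiles and 1.17 against neighboring windows. The KLF letters (1.54) behaved likewise, at 1.31 and 1.32 in those comparisons, while the E-box of ZEB and SNAI factors (CACCTG) stayed at 0.99 or below in all 3.

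Motifs of the fusion's own DNA-binding domains went different ways. The paired-domain letters GTCACGC, shown in Slc10a7 and Sox5, were rare, with 169 windows or 0.473% (0.407 to 0.549) against 0.319% of tiles, a ratio of 1.48 (1.27 to 1.72), and of 1.36 and 1.59 in the other comparisons. The homeodomain dimer of PAX3 occurred in 163 windows, with ratios of 0.59, 0.88 and 0.71. The ETS core (AGGAAGT) had ratios of 1.33, 1.27 and 1.33, RUNX 1.17, 1.17 and 1.08, forkhead (GTAAACA) 1.10, 1.22 and 1.12, and TEAD (GGAATG) 1.09, 1.04 and 1.10. MEF2 was at 0.79 against all tiles, 1.09 against GC-weighted ones and 0.86 against neighboring windows, so its direction depended on the comparison. The CTCF motif was the most depleted of the 21, in 0.811% of windows against 1.4% of tiles (0.58), 0.53 against GC-weighted tiles and 0.43 against neighboring windows. A match describes the sequence and shows no bound factor.

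**Figure D5:**
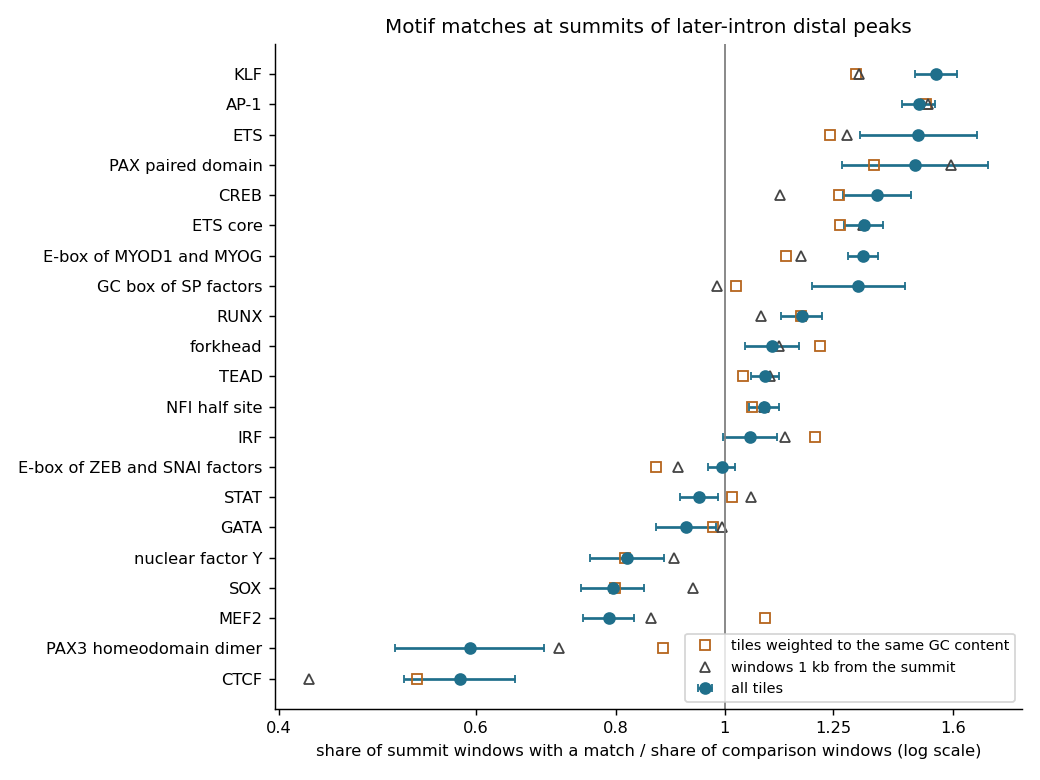
For 21 motifs, the share of summit windows with a match divided by the share of comparison windows (horizontal axis, log scale), against all later-intron tiles (filled circles, with the Wilson 95% interval of the summit share), GC-weighted tiles (squares) and windows 1 kb from the summit (triangles). The AP-1 marks coincide near 1.5, the E-box of MYOD1 and MYOG moves from 1.33 to 1.13, and CTCF lies between 0.43 and 0.58.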

How the data were processed

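CUT&RUN for H3K27ac, in which an antibody directs a nuclease to cut out the DNA around the mark, was analysed for MCP H3K27ac replicate 5, whose peak list was tied to the library by the number in its peak names and its description. The authors mapped read pairs to mm10 and called peaks per library against IgG, after removal of reads from blacklisted stretches of the genome and from 1 amplified stretch near Col19a1. Their methods name bowtie and MACS1.4, whereas the labels' processing notes name BWA, SAMtools and MACS2 and also the dm6 build, and no source used here states the threshold of this list. Its largest q is 0.0471 and its largest p 0.000574, and its layout, with q values, is that of MACS2. The deposited columns hold a fold enrichment (a ratio), a score that is the whole part of 10 times the -log10 q, the -log10 p and the -log10 q, and the summit. Each value belongs to the summit and none is a read count.

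Peaks were placed with RefSeq models of GRCm38.p6 and 31601 start sites. Fragments over each summit and the local background were recovered by solving the deposited fold and -log10 p together, with a tolerance of 0.002 on -log10 p. Whole fragments came out for 100.0% of peaks, and 98.6% had a single solution. Density is members per Mb of sequence that the same rule could assign. A promoter peak is any peak within 2 kb of a curated start site of the gene. Shares have Wilson intervals, densities exact Poisson intervals and medians order-statistic intervals, all of which treat the counted peaks or genes as independent. Motifs were searched on both strands of windows with 100 bases on either side of the summit. Gene names follow the rule of the 10 genes with most members, the 10 densest with at least 10 members, the hosts of the 10 highest-fold and 10 widest peaks, the listed genes with at least 5 members and the myogenic genes with none. Other listed genes and the richest genes without a promoter peak were named after their values were seen. Members, lists and tests were chosen with earlier results of these data known. Of the study's lists, 41 of 42 St. Jude, 26 of 26 NIH, 106 of 114 DepMap and 45 of 45 endothelial symbols matched a mouse gene. Class assignment, motif search and intervals were tested on simulated data. Python 3.11.15, numpy 2.4.6, pandas 2.3.3 and scipy 1.17.1 were used. The other libraries were not used here, and a few genes, 1 gene list and 1 motif are not reported here.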

Additional observations from a re-analysis of the deposited data

How the results depend on the processing

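No paired analysis was possible because the list comes from 1 library and no result comes from a test. For the same reason no replicate could be left out. Of 84 recomputed main values, 31 moved by less than their interval, 53 moved by more and none changed direction. The share of the list was 29.9% with a promoter window of 1 kb, 24.2% among the strongest 25% of peaks, 26.2% at a -log10 q of at least 5, 27.9% with the whole peak in later-intron sequence, 25.4% with predicted models, 28.2% without chromosomes 1, 6, 11 and 15, and 24.4% with GENCODE start sites, an alternative added after the data were seen. In the same order, leaving out values that did not move, the ratio of first-intron to later-intron density was 1.75, 1.77, 1.73, 1.68 and 1.49 (the last with predicted models). The later-intron to intergenic ratio was 2.30 in the strongest 25%, 2.42 at the q limit, 2.52 for whole peaks, 2.87 with predicted models and 2.58 with GENCODE. The median fold and width rose by construction to 7.74 and 507 bp in the strongest 25% and to 6.51 and 292 bp at the q limit, and were 4.89 and 151 bp for whole peaks, with a fold of 5.13 without the 4 chromosomes. The difference in median fold from first introns was -0.065, 0.0, -0.33 and -0.093 under those 4 settings. From intergenic peaks it was -0.035 in the strongest 25%, 0.0 at the q limit and -0.093 without the 4 chromosomes.

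The share in intron 2 was 27.2% with the 1 kb window, 27.6% in the strongest 25%, 27.7% at the q limit, 26.9% for whole peaks, 23.7% with predicted models, 27.8% without the 4 chromosomes, 27.3% with GENCODE and 23.1% by the longest transcript. The share of genes with a member was 14.8% in the strongest 25%, 21.2% at the q limit, 29.8% for whole peaks, 29.6% with predicted models, 28.7% without the 4 chromosomes and 28.5% with GENCODE. The AP-1 ratio was 1.29 in the strongest 25%, 1.41 at the q limit and 1.38 in windows of 50 bp either side. For CAGCTG the ratio was 1.37, 1.38 and 1.39 in these, 1.13 against GC-weighted tiles and 1.17 against windows 1 kb either side. The last 2 comparisons were also added after the data were seen, as were the list densities without the gene with most later-intron sequence. Of the other values, 280 moved by less than their interval, 72 by more, and 6 motif ratios crossed 1. These were the E-box of ZEB and SNAI factors (1.17) and IRF (0.966) in the shorter windows, MEF2 (1.09) and STAT (1.02) against GC-weighted tiles, and the GC box (0.984) and STAT (1.06) against windows 1 kb either side. Beyond what the construction of a setting fixes, the cause was not tested. With 12 fragments at the median summit, depth limits the fold of single peaks.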

Other observations

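The caller numbers its peaks in genome order, and 584 numbers at 285 places were absent from the list. Of these, 7 numbers at 4 places lay between members of the same gene.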
